A study of Homo sapiens with 9 samples.

Results

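The integrin and laminin genes were followed in Hep3B, a liver cancer cell line of human origin, across 9 RNA-seq libraries. They were chosen by gene symbol alone: ITGA followed by a number or 1 letter, ITGA2B, ITGB followed by a number, and LAMA, LAMB or LAMC followed by a number. This rule found 38 of the 60683 genes listed, namely 18 integrin α, 8 integrin β and 12 laminin genes. Of these, 30 had counts summing to 10 or more over the libraries and were tested. Counts of 0 to 8 were found for the other members, which are ITGA8, ITGA9, ITGA11, ITGAD, LAMA1, LAMA2, LAMB4 and LAMC3.

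Hep3B cells received the DMSO vehicle at 20% O2, the vehicle at 1% O2, or 32-134D at 1% O2, each for 24 hours and in 3 replicates. The compound 32-134D is the study's inhibitor of hypoxia-inducible factors (HIFs), the transcription factors that accumulate when oxygen is low, and the labels give no dose of it. No library here held 32-134D at 20% O2, so an action of the compound apart from low oxygen and an action on the hypoxic response cannot be told apart. All libraries came from the same line. The labels call the replicates biological without naming separate days or passages, so the p-values measure the spread between these libraries.

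Integrins are receptors of the cell surface in which an α chain pairs with a β chain, and they tie the cytoskeleton to the matrix outside the cell. Laminins are secreted heterotrimers of an α, a β and a γ chain, and with collagen, nidogen and perlecan they make up the basement membrane that several integrins bind. In the liver, integrins of hepatocytes and of hepatocellular carcinoma cells bind fibronectin, collagen, vitronectin and laminin, and the αv integrins also release TGF-β from its latent complex.

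Total counts ran from 6013980 to 40549699 per library. Low oxygen raised the HIF targets CA9, VEGFA and NDRG1 by 4.38, 2.45 and 3.69 on the log2 scale, and 32-134D lowered them by log2 fold changes of -3.36, -1.81 and -3.0. All 7 hepatocyte markers examined, among them albumin, were present. Replicate 3 of 32-134D stood apart, because 518 of 15960 genes (3.25%) lay more than 2-fold from the mean of the other replicates of its group. In any other library at most 158 did. Among 25 integrin and laminin genes with a mean of at least 10 counts, the same held for 5 in that library, ITGA2, ITGA3, ITGA10, ITGAL and ITGB6. Values without that replicate are given for these 5 genes and where leaving it out changed whether a member was called. Fold changes followed transcript length, with a median log2 change in hypoxia of -0.43 over the 1296 tested genes whose longest transcript reached 8 kb, and values with this trend and that of GC content removed are given where they matter.

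Hypoxia lowered the main laminin chains, the αv and β1 integrin genes and their relatives ITGA1, ITGA6 and ITGB6, and the same named genes were higher with 32-134D than with vehicle at 1% O2. A gene was called at a Benjamini-Hochberg FDR below 0.05 over all 22672 genes tested, by edgeR's quasi-likelihood test, and a fold change above 1.5. In vehicle at 1% O2 against vehicle at 20% O2, 10 members (33.3% of those tested) were lower, where 20.3% of all genes were called lower, and 2 members were higher, where 19.5% of all genes were called higher. The median log2 fold change was -0.22 over the 30 tested members and 0.00 over all genes. With 32-134D against vehicle at 1% O2, 11 members (36.7%) were higher, where 16.2% of all genes were, and 0 were lower, where 13.7% of all genes were. The median was 0.43 over the members and -0.01 over all genes. At an unadjusted edgeR p under 0.05, 2 members were lower with 32-134D, and DESeq2 called 0. These comparisons share the 3 vehicle libraries at 1% O2, so opposite signs in them are not independent of each other. Scaling by total library size moved the median of all genes by -0.21 in hypoxia and by 0.19 with 32-134D, and the calls over all genes became 3082 higher and 5847 lower in hypoxia, in place of 4412 and 4595. With 32-134D they became 4754 higher and 1847 lower, in place of 3675 and 3101. On that scale 1 member was higher and 10 were lower in hypoxia, and 13 were higher with 32-134D.

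**Figure D1:**
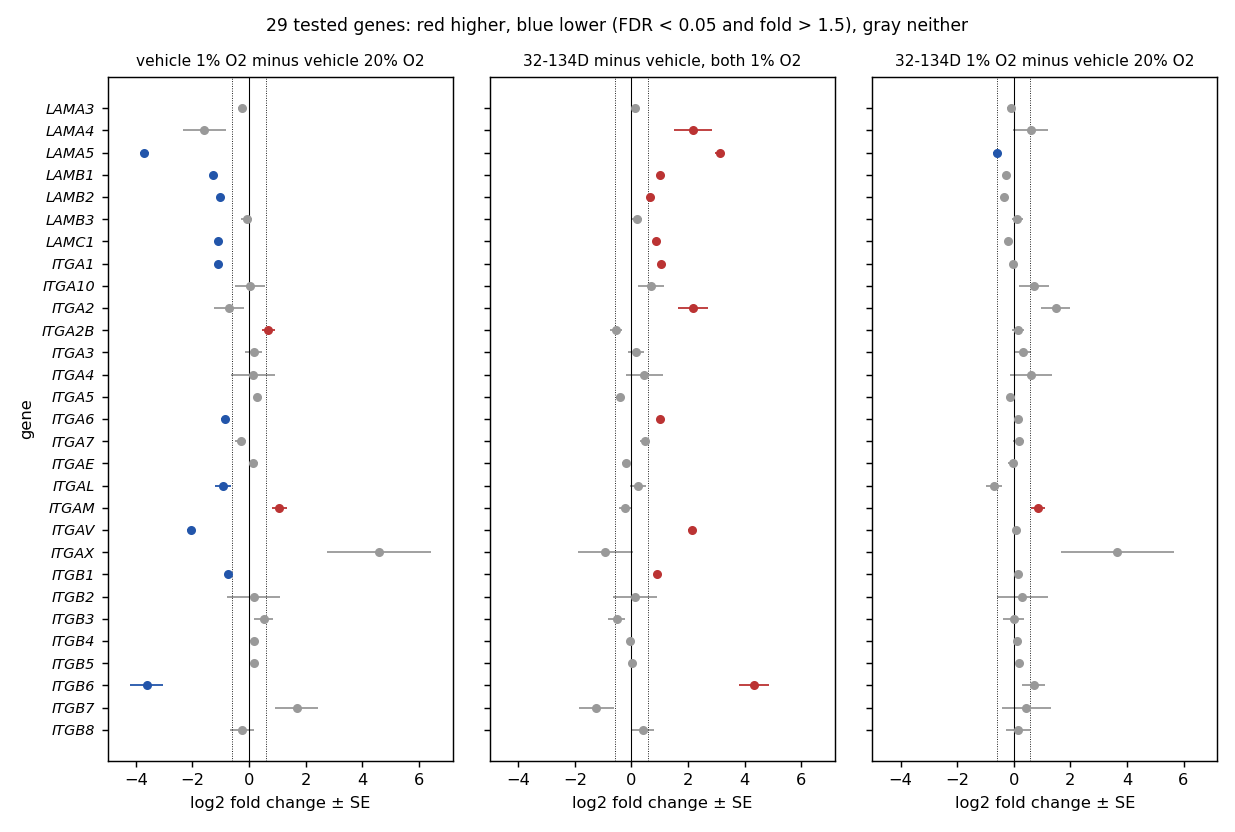
Log2 fold changes with standard errors (horizontal axis) for 29 of the 30 tested genes (vertical axis), from the edgeR fit of 9 libraries, in 3 comparisons. Dotted lines mark a fold change of 1.5, and the 10 lower genes of the left panel lie to its left, while the 11 higher genes of the middle panel lie to its right. ITGAX rests on 15 counts in all.

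Among the laminins, the genes of the chains LAMA5, LAMB1, LAMB2 and LAMC1 were lower in hypoxia and higher with 32-134D, LAMA5 by far the most of these 4. LAMA5 is the α chain of the most widespread epithelial and vascular basement membrane laminins. On GRCh38 it lies on the minus strand of chromosome 20, from 62307955 to 62367312. Its level was 704, 916 and 933 CPM (counts scaled to library size by TMM) in vehicle at 20% O2, 69.0, 62.8 and 63.0 CPM in vehicle at 1% O2, and 631, 649 and 413 CPM with 32-134D. The 3 groups did not overlap, the hypoxic libraries lay far below both others, and replicate 3 of 32-134D was the lowest of its group. In bulk RNA, fewer cells of a type and less RNA per cell cannot be told apart. The mean fell 13.1-fold in hypoxia (log2 -3.71, SE 0.161, edgeR FDR 1.72e-10) and was 8.69-fold higher with 32-134D than with vehicle at 1% O2 (log2 3.12, SE 0.157, edgeR FDR 2.47e-09). With the length and GC trends removed the log2 values were -3.08 and 2.63, and without replicate 3 of 32-134D the second was 3.30. The exons of LAMA5 overlap those of ADRM1 on the opposite strand over 244 bases, and the strand setting of the counting is not given in the sources used here.

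LAMC1 encodes the γ chain shared by most laminins and lies on chromosome 1, from 183023460 to 183145592. It measured 636, 768 and 793 CPM in vehicle at 20% O2, 331, 353 and 354 CPM in vehicle at 1% O2, and 666, 653 and 562 CPM with 32-134D. Every hypoxic vehicle library lay below every other library, and the 32-134D libraries overlapped those of vehicle at 20% O2. LAMC1 was 2.12-fold lower in hypoxia (log2 -1.08, SE 0.0918, edgeR FDR 1.32e-07) and 1.81-fold higher with 32-134D (log2 0.86, SE 0.0913, edgeR FDR 2.44e-06). With the trends removed these became -0.85 and 0.60, the second close to the threshold.

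LAMB1, a β chain that pairs with LAMC1, lies on chromosome 7 from 107923799 to 108003255. It measured 461, 504 and 518 CPM in vehicle at 20% O2, 198, 217 and 202 CPM in vehicle at 1% O2, and 427, 434 and 371 CPM with 32-134D. The groups did not overlap, and the 32-134D libraries lay just under those at 20% O2. It was 2.40-fold lower in hypoxia (log2 -1.27, SE 0.0801, edgeR FDR 6.25e-09) and 1.997-fold higher with 32-134D (log2 1.00, SE 0.0794, edgeR FDR 1.62e-07). LAMB2, a β chain prominent at neuromuscular and kidney basement membranes, lies on chromosome 3 from 49121114 to 49133118. It measured 201, 235 and 234 CPM, then 95.9, 116 and 121 CPM, then 183, 188 and 157 CPM in the same order of groups. These ranges did not overlap either. LAMB2 was 2.02-fold lower in hypoxia (log2 -1.01, SE 0.1, edgeR FDR 6.54e-07) and 1.59-fold higher with 32-134D (log2 0.67, SE 0.0989, edgeR FDR 5.39e-05). The second call was lost with the trends removed (log2 0.58) and without replicate 1 of vehicle at 1% O2 (log2 0.58). The pseudogene LAMB2P1 collected 178 counts in all, against 37026 for LAMB2.

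LAMA4, an α chain of endothelial and mesenchymal basement membranes, had 74 counts in all. Its counts were 5, 0 and 15 in vehicle at 20% O2, 4, 4 and 2 in vehicle at 1% O2, and 11, 10 and 23 with 32-134D. As levels the 32-134D libraries held 0.312, 0.337 and 1.05 CPM, the last in the replicate that stood apart, and the hypoxic vehicle libraries 0.106, 0.189 and 0.0691 CPM. The difference was called (log2 2.17, SE 0.67, edgeR FDR 0.0149), but not without replicate 3 of 32-134D (log2 1.46, edgeR FDR 0.0691), nor without replicate 1 or 3 of vehicle at 1% O2. LAMA4 was not called in hypoxia with all libraries (log2 -1.58, edgeR FDR 0.095), but was without that replicate (log2 -1.59, edgeR FDR 0.0406) and with no filter on low counts.

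LAMA3 and LAMB3 encode laminin chains of epidermal and other epithelial anchoring sites, and neither was called in any of the 3 comparisons. LAMA3 averaged 25.0 ± 4.05, 21.1 ± 4.597 and 23.3 ± 0.817 CPM (SD, n = 3) in vehicle at 20% O2, vehicle at 1% O2 and 32-134D. LAMB3 averaged 13.2 ± 1.27, 12.7 ± 0.556 and 14.8 ± 5.20 CPM (SD, n = 3).

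**Figure D2:**
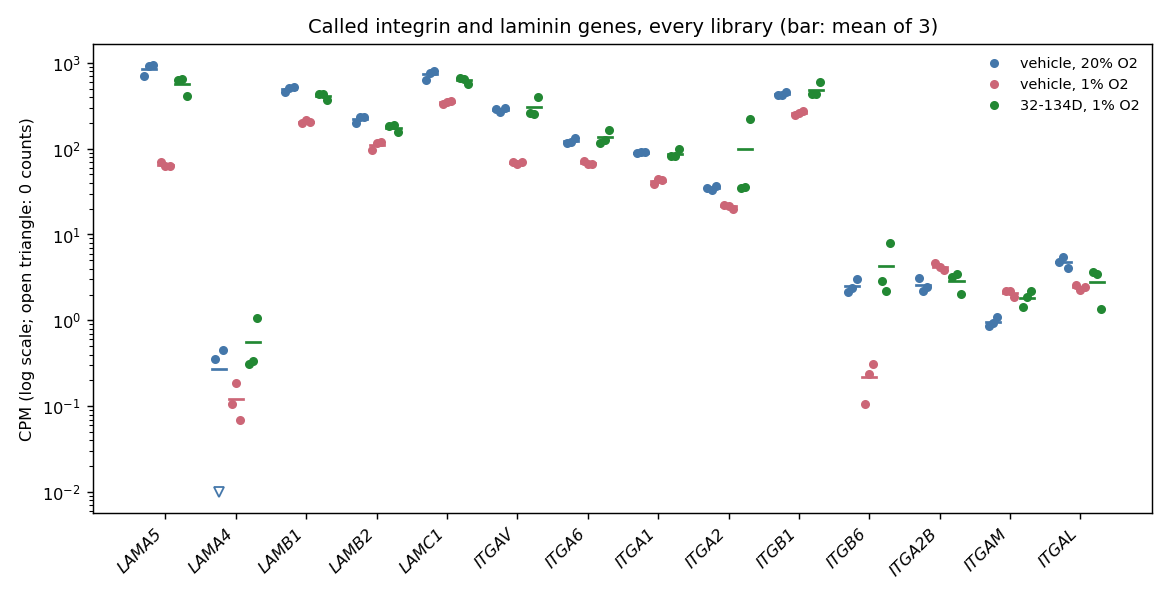
Level of 14 called genes in every library, in CPM on a log axis, by group (color), with bars at the means of 3 libraries. The hypoxic vehicle libraries of LAMA5 sit between 62.8 and 69.0 CPM, below all 6 others, and in ITGA2 replicate 3 of 32-134D sits at 223 CPM, apart from the rest. An open triangle marks 0 counts.

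On the scale of CPM per kb of exon, which allows genes to be compared, the laminin α genes summed to 61.3 ± 9.18 in vehicle at 20% O2, 5.99 ± 0.555 in vehicle at 1% O2 and 41.1 ± 9.21 with 32-134D (SD, n = 3). LAMA5 made up 97.2% of this sum at 20% O2, 72.8% to 78.2% in the hypoxic vehicle libraries and 94.7% to 96.6% with 32-134D. LAMA3 made up 2.74% to 2.85%, then 21.5% to 27.1%, then 3.33% to 5.04%. The level of LAMA3 itself was not called different, and a share rises when the other members of a sum fall. The laminin β genes summed to 96.1 ± 6.29, 44.1 ± 2.72 and 79.3 ± 5.62 (SD, n = 3). The ratio of LAMA5 to LAMC1 was 0.682 ± 0.0266 at 20% O2, 0.111 ± 0.0103 in hypoxia and 0.525 ± 0.0813 with 32-134D (SD, n = 3), with no overlap between the groups. The ratio of LAMB1 to LAMC1 moved less, from 0.701 ± 0.0419 to 0.614 ± 0.0238 and 0.676 ± 0.0128 (SD, n = 3). Its hypoxic vehicle libraries still lay below all libraries of both other groups. With 3 libraries against 3, a 2-sided exact permutation test of a single ratio cannot give a p under 0.1, so the ratios are given with their ranges and no test.

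The bases upstream of the starts of 3 genes that fell in hypoxia and rose with 32-134D, LAMA5, LAMC1 and ITGAV, are shown with those of ITGA6, which moved the same way. Each run holds the 250 bases before a RefSeq start on GRCh38.p14, written 5′ to 3′ on the strand of the gene, LAMA5 chr20:62367313-62367562 on the minus strand, and on the plus strand LAMC1 chr1:183023170-183023419, ITGAV chr2:186589806-186590055 and ITGA6 chr2:172427086-172427335. In LAMA5, LAMC1 and ITGAV, capitals mark any GC box, GGGCGG on either strand, a letter pattern bound by SP factors. In ITGA6 they mark the core of the HIF response element, ACGTG or GCGTG on either strand.
LAMA5: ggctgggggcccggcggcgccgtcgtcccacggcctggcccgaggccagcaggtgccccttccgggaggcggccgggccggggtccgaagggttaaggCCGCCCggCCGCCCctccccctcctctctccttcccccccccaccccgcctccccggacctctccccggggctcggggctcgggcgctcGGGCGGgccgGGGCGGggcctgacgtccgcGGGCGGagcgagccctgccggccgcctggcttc
LAMC1: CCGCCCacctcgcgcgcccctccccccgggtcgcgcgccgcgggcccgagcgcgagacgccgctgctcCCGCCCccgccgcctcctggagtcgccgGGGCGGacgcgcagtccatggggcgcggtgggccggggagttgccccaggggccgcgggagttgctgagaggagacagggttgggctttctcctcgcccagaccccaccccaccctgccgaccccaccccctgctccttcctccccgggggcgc
ITGAV: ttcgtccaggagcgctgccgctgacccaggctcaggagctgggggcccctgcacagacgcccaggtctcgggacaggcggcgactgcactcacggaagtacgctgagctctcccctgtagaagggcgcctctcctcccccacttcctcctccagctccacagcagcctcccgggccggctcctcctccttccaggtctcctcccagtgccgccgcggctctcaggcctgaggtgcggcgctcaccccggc
ITGA6: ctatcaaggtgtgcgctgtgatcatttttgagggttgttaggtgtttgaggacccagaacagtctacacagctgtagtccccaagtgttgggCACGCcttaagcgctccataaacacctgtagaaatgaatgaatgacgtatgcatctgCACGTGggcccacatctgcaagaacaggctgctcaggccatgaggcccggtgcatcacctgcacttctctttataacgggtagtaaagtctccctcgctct
The LAMA5 window held 5 GC boxes in 82.8% G and C, and the LAMC1 window 3 in 79.6%. ITGAV held 0 matches to either pattern at 70.8% G and C. ITGAV has another RefSeq window, also with 0 matches. In the ITGA6 window shown, which holds more HIF cores than the other RefSeq window of ITGA6, the HIF core occurred 3 times at 50.8% G and C, of which a pair overlaps on opposite strands as CACGTG. The other ITGA6 window, chr2:172427336-172427585, held 1 HIF core and 3 GC boxes at 71.6% G and C. Windows were found for 26 of the 38 members, and the HIF core lay in a window of 9 of them, ITGA2, ITGA2B, ITGA4, ITGA5, ITGA6, ITGA11, ITGB5, ITGB8 and LAMA2. The same core lay in a window of 47.4% of 27305 genes. The GC box lay in a window of 14 of the 26, against 46.2% of those genes. The HIF core was absent from the windows of LAMA5, LAMB1, LAMB2, LAMC1, ITGAV, ITGA1, ITGB1 and ITGB6, which were lower in hypoxia. It was also absent from those of ITGAM, which was higher in hypoxia. LAMA4, called only with 32-134D against vehicle at 1% O2, lacked it too, as did the uncalled ITGA10, ITGAE, ITGB7, LAMA3 and LAMB3. The untested ITGA8 and LAMB4 also lacked it. Of the genes lowered in hypoxia that had a window, ITGA6 alone held the HIF core. Absence was also found outside the lowered genes, and a link to the direction of change was not tested. A match is a run of letters and not a measured binding site.

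Of the integrin α genes, ITGAV, ITGA6, ITGA1 and ITGAL were lower in hypoxia, and ITGAM and ITGA2B were higher. ITGAV encodes the αv chain, which binds vitronectin, fibronectin and latent TGF-β with several β partners, and lies on chromosome 2 from 186590065 to 186680901. It measured 292, 267 and 295 CPM in vehicle at 20% O2, 69.7, 65.7 and 69.3 CPM in vehicle at 1% O2, and 257, 256 and 398 CPM with 32-134D. All hypoxic vehicle libraries were low, and the 32-134D libraries spanned those at 20% O2, with the replicate that stood apart the highest of all. ITGAV was 4.18-fold lower in hypoxia (log2 -2.06, SE 0.139, edgeR FDR 1.18e-08) and 4.44-fold higher with 32-134D (log2 2.15, SE 0.139, edgeR FDR 2.26e-08). Without replicate 3 of 32-134D the second value was 1.91, and with the length and GC trends removed the values were -2.03 and 2.0.

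ITGA6 pairs with ITGB1 or ITGB4 as a laminin receptor and lies on chromosome 2 from 172427354 to 172506282. It measured 117, 119 and 135 CPM in vehicle at 20% O2, 71.4, 66.2 and 65.9 CPM in vehicle at 1% O2, and 118, 125 and 164 CPM with 32-134D. Hypoxic vehicle libraries lay below all others, and the other groups overlapped. The gene was 1.82-fold lower in hypoxia (log2 -0.86, SE 0.11, edgeR FDR 8.84e-06) and 1.99-fold higher with 32-134D (log2 1.00, SE 0.109, edgeR FDR 3.32e-06).

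ITGA1 and ITGA2, whose proteins pair with ITGB1 to bind collagen and laminin, are neighbours on chromosome 5 with 30.1 kb between them. ITGA1, from 52787896 to 52959210, measured 88.3, 90.1 and 90.8 CPM in vehicle at 20% O2, 39.1, 43.98 and 43.0 CPM in vehicle at 1% O2, and 81.1, 81.9 and 99.3 CPM with 32-134D. The hypoxic vehicle libraries formed a separate low group. ITGA1 was 2.14-fold lower in hypoxia (log2 -1.10, SE 0.0885, edgeR FDR 7.80e-08) and 2.08-fold higher with 32-134D (log2 1.06, SE 0.0873, edgeR FDR 2.28e-07), and with the trends removed the values were -0.78 and 0.65. Its exons overlap those of PELO on the same strand over 475 bases.

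ITGA2, from 52989326 to 53094779, measured 34.5, 32.8 and 36.6 CPM in vehicle at 20% O2, 22.1, 21.7 and 20.1 CPM in vehicle at 1% O2, and 34.7, 35.3 and 223 CPM with 32-134D. Replicate 3 of 32-134D, with 4880 counts against 1224 and 1049 in the other replicates, alone set the mean of its group. The difference with 32-134D was called with all libraries (log2 2.19, SE 0.527, edgeR FDR 0.00309) and without that replicate, at a smaller size (log2 0.72, edgeR FDR 3.31e-08), while DESeq2 with all libraries did not call it. In hypoxia the log2 difference was -0.71 with an edgeR FDR of 0.285, where the spread estimated for ITGA2 included that library, and without it the value was -0.72 and was called (edgeR FDR 8.53e-09).

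ITGA5, the α chain of the main fibronectin receptor, was not called in any comparison. It measured 127, 156 and 149 CPM in vehicle at 20% O2, 167, 179 and 174 CPM in vehicle at 1% O2, and 140, 143 and 110 CPM with 32-134D. The hypoxic vehicle libraries were the highest, by less than the fold threshold. The log2 differences were 0.27 in hypoxia (SE 0.101, edgeR FDR 0.0375) and -0.40 with 32-134D (SE 0.0998, edgeR FDR 0.00372). ITGA3 and ITGA7, whose proteins bind laminin in epithelia and in muscle, averaged 4.57 to 7.49 CPM in the 3 groups, and neither was called. ITGA3 had log2 differences of 0.17 in hypoxia and 0.17 with 32-134D, and without replicate 3 of 32-134D, at 12.1 CPM against 4.68 and 5.69 CPM in the other replicates, the second was -0.34 (edgeR FDR 0.054). ITGA7 had -0.30 in hypoxia and 0.47 with 32-134D (edgeR FDR 0.183 and 0.0361), and the second was called under total library size scaling and without replicate 1 of 32-134D. ITGA4 and ITGA10 had 76 and 172 counts in all and were not called. With 32-134D, ITGA10 had a log2 difference of 0.69 with all libraries and -0.06 without replicate 3, and ITGA4 had 0.45 and -0.48.

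Of the α genes best known from blood cells, ITGAE, whose protein binds E-cadherin on lymphocytes that lie in epithelia, averaged 15.5, 17.5 and 15.2 CPM and was not called. The others were lower in level. ITGAL, the α chain of the leukocyte receptor for ICAM proteins, measured 4.80, 5.50 and 4.07 CPM in vehicle at 20% O2, 2.60, 2.26 and 2.45 CPM in vehicle at 1% O2, and 3.63, 3.43 and 1.37 CPM with 32-134D. It was 1.90-fold lower in hypoxia (log2 -0.92, SE 0.279, edgeR FDR 0.0115). With 32-134D its log2 difference was 0.23 with all libraries (edgeR FDR 0.519) and 0.52 without replicate 3, which held the lowest value of the group and lay below every hypoxic vehicle library.

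ITGAM, the α chain of a myeloid complement receptor, measured 0.860, 0.942 and 1.10 CPM in vehicle at 20% O2, 2.23, 2.22 and 1.87 CPM in vehicle at 1% O2, and 1.42, 1.85 and 2.20 CPM with 32-134D. The libraries at 20% O2 lay below all others, and the other groups overlapped. It was 2.11-fold higher in hypoxia (log2 1.07, SE 0.253, edgeR FDR 0.00217), and its log2 difference with 32-134D was -0.22 (edgeR FDR 0.422). ITGA2B, the α chain of the platelet fibrinogen receptor, measured 3.16, 2.20 and 2.46 CPM, then 4.61, 4.195 and 3.91 CPM, then 3.18, 3.43 and 2.01 CPM in the same order. The hypoxic vehicle libraries were the highest, without overlap. It was 1.61-fold higher in hypoxia (log2 0.69, SE 0.218, edgeR FDR 0.0155), a call lost under total library size scaling (log2 0.48) and without replicate 3 of vehicle at 20% O2 or replicate 1 of vehicle at 1% O2. ITGA2B had a log2 difference of -0.54 with 32-134D (edgeR FDR 0.0357), under the fold threshold. ITGAX had 6, 4 and 0 counts in the hypoxic vehicle libraries and 0 in the 3 libraries at 20% O2, too few to give a fold change, and was called in hypoxia under some alternatives, among them without replicate 3 of 32-134D, but not with all libraries.

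Defining markers of blood cells were at or near 0 in the same libraries. PTPRC had 7 counts in all and CD3E had 0, and the platelet genes PF4, PPBP and GP9 had 0. The leukocyte list as a whole, 6 genes of which 3 had 10 or more counts, summed to 26.9 to 33.3 CPM in vehicle at 20% O2, 8.51 to 11.0 CPM in vehicle at 1% O2 and 13.9 to 23.3 CPM with 32-134D, nearly all of it LYZ. The fibroblast list, 5 genes of which 4 had 10 or more counts and none was at 0, summed to 52.0 to 57.5, 23.2 to 24.7 and 48.9 to 55.9 CPM in the same order. The endothelial list, 4 genes with TEK and ERG at 0, summed to 0.639 to 1.00, 0.0943 to 0.380 and 0.505 to 1.28 CPM. Their part in the integrin and laminin differences was not tested.

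Of the integrin β genes, ITGB1 and ITGB6 were lower in hypoxia and higher with 32-134D, while ITGB5 and ITGB4 were not called. ITGB1, the partner of most matrix-binding α chains, lies on chromosome 10 from 32900319 to 33005792. It measured 424, 424 and 455 CPM in vehicle at 20% O2, 247, 258 and 275 CPM in vehicle at 1% O2, and 430, 429 and 594 CPM with 32-134D. All hypoxic vehicle libraries were below all others, and replicate 3 of 32-134D was above all. ITGB1 was 1.67-fold lower in hypoxia (log2 -0.74, SE 0.108, edgeR FDR 3.44e-05) and 1.86-fold higher with 32-134D (log2 0.90, SE 0.108, edgeR FDR 8.37e-06), or 0.72 on the log2 scale without replicate 3. The pseudogene ITGB1P1 held 669 counts in all against 87260 for ITGB1.

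ITGB6, an epithelial partner of αv that releases latent TGF-β, lies on chromosome 2 from 160099666 to 160200313. Its level was low, at 2.15, 2.36 and 3.04 CPM in vehicle at 20% O2, 0.106, 0.236 and 0.311 CPM in vehicle at 1% O2, and 2.89, 2.19 and 7.96 CPM with 32-134D. In counts, the hypoxic vehicle libraries held 4, 5 and 9, against at least 15 in any other library. ITGB6 was 12.3-fold lower in hypoxia (log2 -3.62, SE 0.58, edgeR FDR 8.14e-05) and 20.0-fold higher with 32-134D (log2 4.32, SE 0.537, edgeR FDR 1.09e-05), or 3.604 on the log2 scale without replicate 3.

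ITGB5, another αv partner that binds vitronectin, measured 293, 305 and 305 CPM in vehicle at 20% O2, 332, 344 and 336 CPM in vehicle at 1% O2, and 321, 314 and 382 CPM with 32-134D. The libraries of all groups lay within a narrow range. The log2 difference was 0.17 in hypoxia (SE 0.078, edgeR FDR 0.0886), and it was -0.05 under total library size scaling. ITGB4, the hemidesmosome partner of ITGA6, averaged 71.8 ± 10.3, 80.9 ± 2.95 and 78.7 ± 15.8 CPM (SD, n = 3), and its hypoxia value changed sign under the same scaling (log2 0.17 and -0.04). Levels of ITGB2, ITGB3, ITGB7 and ITGB8 stayed below 1.5 CPM in every library, and none of these was called with all libraries. ITGB7 had a log2 difference of 1.69 in hypoxia (edgeR FDR 0.0759), which was called without replicate 3 of 32-134D (log2 1.71, edgeR FDR 0.0365) and with only the 6 libraries compared. ITGB7 has 46 counts in all and shares 1886 exonic bases with ZNF740 on the opposite strand, which has 18155.

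Per kb of exon, the integrin α genes summed to 87.2 ± 3.28 in vehicle at 20% O2, 52.2 ± 0.471 in vehicle at 1% O2 and 97.6 ± 25.7 with 32-134D (SD, n = 3). ITGAV was the leading α gene at 20% O2, with 38.2% to 41.8% of the sum, and fell to 15.2% to 16.3% in hypoxia, against 37.2% to 38.3% with 32-134D. ITGA5 held 19.7% to 24.1% at 20% O2, 42.1% to 44.9% in hypoxia and 11.4% to 22.6% with 32-134D, so the order of the pair changed in every hypoxic vehicle library. ITGA6 held 19.3% to 22.9% throughout. ITGA2 held 4.86% to 5.36% in 8 libraries and 22.2% in replicate 3 of 32-134D. Divided by the longest transcript in place of all exons, ITGAV averaged 36.0%, 13.4% and 34.9% and ITGA5 25.6%, 47.9% and 22.3% in the 3 groups.

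The integrin β genes summed to 130 ± 5.14, 108 ± 3.11 and 146 ± 24.5 per kb of exon (SD, n = 3). ITGB1 held 54.3% to 56.2% at 20% O2, 39.3% to 41.5% in hypoxia and 54.0% to 56.7% with 32-134D. ITGB5 held 34.8% to 36.4%, 47.1% to 49.2% and 34.0% to 37.5%, so that it was the leading β gene in the hypoxic vehicle libraries only. Among chains that can pair, the ratio of ITGAV to ITGB5 was 0.745 ± 0.0496, 0.159 ± 0.00813 and 0.695 ± 0.106 (SD, n = 3). That of ITGA6 to ITGB4 was 1.79 ± 0.189, 0.870 ± 0.0726 and 1.79 ± 0.0668, and that of ITGA5 to ITGB1 was 0.263 ± 0.0267, 0.529 ± 0.0262 and 0.223 ± 0.0661 (SD, n = 3). In each of these ratios the hypoxic vehicle libraries lay outside the range of both other groups. The ratio of ITGA6 to ITGB1 moved little, at 0.261 ± 0.0103, 0.241 ± 0.0232 and 0.258 ± 0.00918 (SD, n = 3), and its groups overlapped. RNA ratios give no amount of paired protein.

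**Figure D3:**
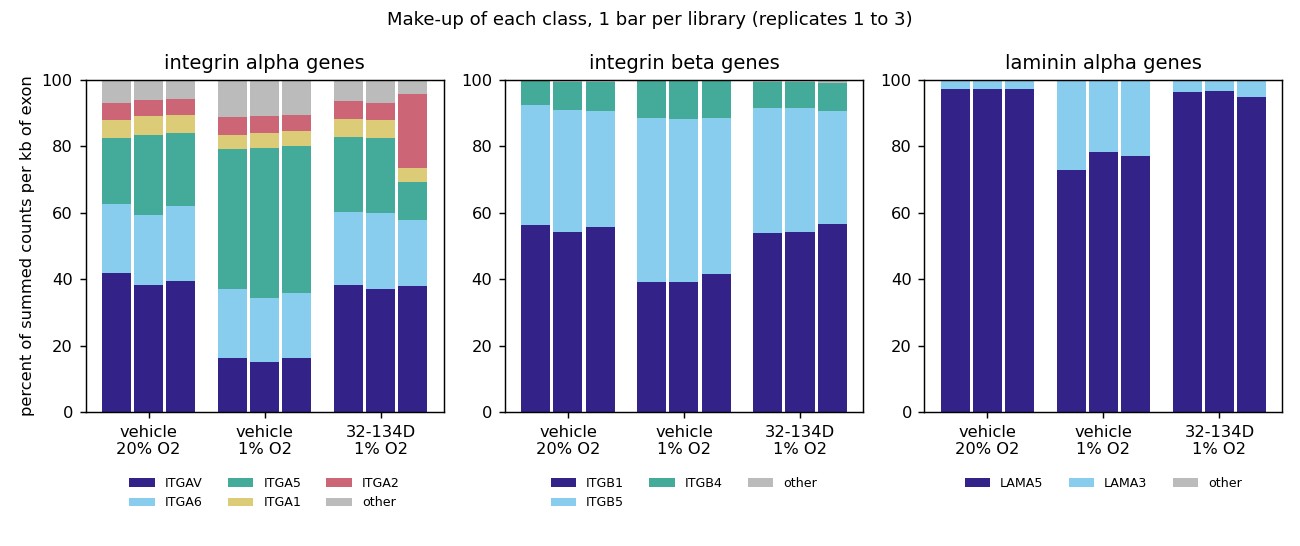
Share of each gene in the summed counts per kb of exon of its class (vertical axis, percent), 1 bar per library, for integrin α, integrin β and laminin α genes. ITGAV gives way to ITGA5, and ITGB1 to ITGB5, in the 3 hypoxic vehicle libraries, LAMA3 grows to 21.5% to 27.1% there, and ITGA2 reaches 22.2% in replicate 3 of 32-134D.

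The lowering in hypoxia and the rise with 32-134D were read against transcript length, since members are long. Of the 30 tested members, 5 had a longest transcript of 2 to 4 kb, 17 of 4 to 6 kb, 4 of 6 to 8 kb and 4 of 8 kb or more. Of all tested genes in each of these bins, 18.8%, 22.9%, 27.5% and 40.9% were called lower in hypoxia, and 1, 5, 2 and 2 members were. With 32-134D against vehicle at 1% O2, 14.2%, 18.5%, 25.2% and 39.7% were called higher, and 1, 4, 4 and 2 members were. With the length and GC trends removed, 10 members were called lower and 3 higher in hypoxia, where 19.7% and 18.6% of all genes were. With 32-134D 10 members were then higher, where 15.4% of all genes were. On that scale LAMA3 had log2 differences of 0.19 and -0.29, against -0.24 and 0.13 without the removal, and was uncalled on either.

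**Figure D4:**
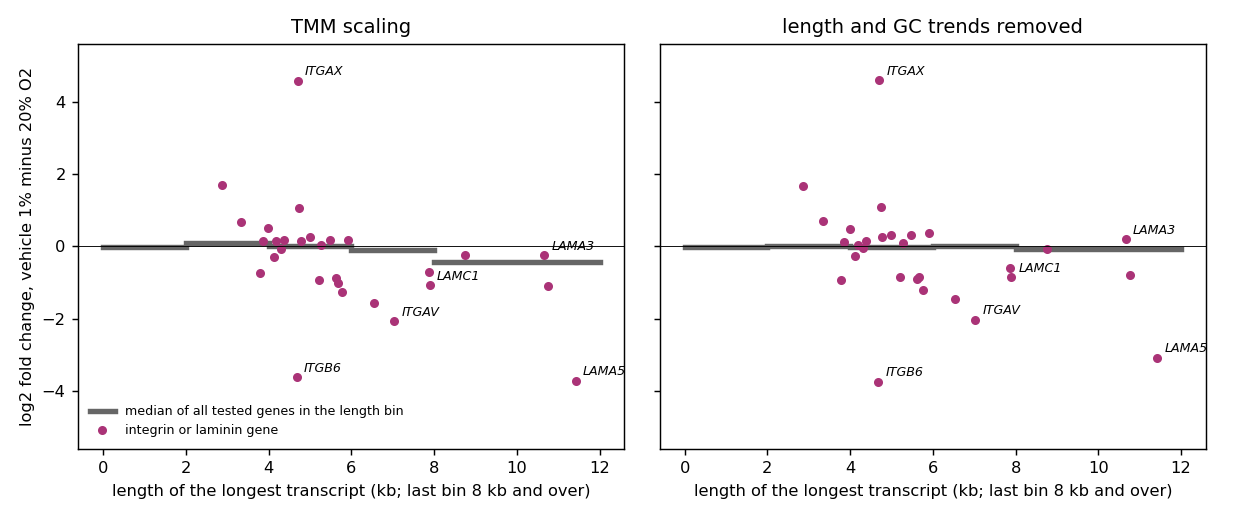
Log2 fold change in hypoxia (vertical axis) against the length of the longest transcript in kb (horizontal axis), with TMM scaling and with length and GC trends removed. Gray bars are medians of all tested genes by length, -0.43 at 8 kb and over on the left and -0.06 on the right, and LAMA5, ITGAV and ITGB6 lie far below them in both panels.

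Between 32-134D at 1% O2 and vehicle at 20% O2, 1 member was higher, where 3.0% of all genes were, and 1 was lower, where 0.516% of all genes were. LAMA5 was 1.51-fold lower (log2 -0.59, SE 0.144, edgeR FDR 0.0173), just past the fold threshold, and without replicate 3 of 32-134D the log2 value was -0.41 and was not called. The call was also lost without replicate 2 or 3 of vehicle at 20% O2, without replicate 3 of vehicle at 1% O2, and with DESeq2. ITGAM was 1.80-fold higher (log2 0.85, SE 0.257, edgeR FDR 0.0495), and this call was lost without replicate 1, 2 or 3 of vehicle at 20% O2, without replicate 1 or 2 of vehicle at 1% O2 and without replicate 2 or 3 of 32-134D, each taken singly. LAMB1 and LAMB2 had log2 differences of -0.27 and -0.34 (edgeR FDR 0.0443 and 0.0413), under the fold threshold. ITGA2 had 1.48 with all libraries (edgeR FDR 0.0931) and 0.00 without replicate 3 of 32-134D. The other called genes of the first comparisons, ITGAV, ITGA1, ITGA2B, ITGA6, ITGAL, ITGB1, ITGB6, LAMA4 and LAMC1, had log2 differences of -0.69 to 0.70 with all libraries and -0.37 to 0.33 without replicate 3 of 32-134D, none called. The change was widest for ITGB6, from 0.70 to -0.05. The median over the members was 0.15, against 0.00 over all genes.

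Genes whose products bind laminins or integrins were read from 4 lists of 95 genes in all, of which 87 were tested. Of 18 tested basement membrane partners and other laminin binders, 8 (44.4%) were lower and 3 (16.7%) higher in hypoxia, where 20.3% and 19.5% of all genes were. With 32-134D 8 (44.4%) were higher and 3 (16.7%) lower, where 16.2% and 13.7% of all genes were. HSPG2, which encodes perlecan, measured 1474, 2085 and 2197 CPM in vehicle at 20% O2, 193, 204 and 205 CPM in vehicle at 1% O2, and 1498, 1581 and 1519 CPM with 32-134D. Its hypoxic vehicle libraries lay far below the rest. The log2 differences were -3.26 in hypoxia and 2.93 with 32-134D (edgeR FDR 4.44e-11 and 4.00e-10). With the length and GC trends removed they were -2.48 and 2.30. AGRN, which encodes agrin, had -2.27 and 1.77, and NID2, a nidogen that links laminin to collagen, had -2.0 and 1.90. FBLN2, named after its values were seen, went the other way, with 16, 11 and 16 counts in the hypoxic vehicle libraries, 0 in all 3 at 20% O2 and 1, 0 and 0 with 32-134D.

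Of 21 tested integrin ligands other than laminins, 9 (42.9%) were lower and 1 (4.76%) higher in hypoxia, and with 32-134D 6 (28.6%) were higher and 2 (9.52%) lower. Over all genes, 20.3% were lower and 19.5% higher in hypoxia, and 16.2% were higher and 13.7% lower with 32-134D. FN1, which encodes fibronectin, averaged 2888, 1128 and 2538 CPM in vehicle at 20% O2, vehicle at 1% O2 and 32-134D, with log2 differences of -1.36 and 1.17. EDIL3, an αv ligand, had -2.23 and 2.65, and LTBP1, which anchors latent TGF-β, had -1.17 and 1.41. Without replicate 3 of 32-134D the second values were 2.27 for EDIL3 and 1.07 for LTBP1, both called. THBS1, a thrombospondin, had -1.47 and 1.00. After removal of the length and GC trends THBS1 had -1.26 and 0.75 and FN1 had -1.11 and 0.85, all still called. Of 10 tested hemidesmosome and tetraspanin partners, 5 (50.0%) were lower and 1 (10.0%) higher in hypoxia, and 5 (50.0%) were higher and 1 (10.0%) lower with 32-134D. PLEC, the plectin that ties ITGB4 to keratin, had log2 differences of -1.73 and 1.47, and DST, a plakin with a hemidesmosomal isoform, -0.94 and 0.98. With the length and GC trends removed PLEC had -0.91 and 0.81, and DST had -0.11 and 0.16 and was no longer called in either. CD82 had -1.39 and 1.14, and TSPAN4 had -1.07 and 0.74, both tetraspanins that associate with integrins.

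The list of integrin tail and focal adhesion proteins was split. Of 38 tested, 12 (31.6%) were lower and 10 (26.3%) higher in hypoxia, and 10 (26.3%) were higher and 8 (21.1%) lower with 32-134D, with medians of -0.03 and 0.19. The shares over all genes were 20.3% lower and 19.5% higher in hypoxia, and 16.2% higher and 13.7% lower with 32-134D. TLN2, a talin that activates integrins, had log2 differences of -3.07 and 2.44, and PTK2B, a kinase related to FAK, had -2.01 and 1.49. Those of TLN2 were -2.55 and 1.96 with the length and GC trends removed. DOCK1, an exchange factor for RAC, had -1.58 and 1.35. NEDD9, a docking protein of the CAS family, moved opposite to these, with 74.4, 76.0 and 72.1 CPM at 20% O2, 232, 244 and 249 CPM in hypoxia and 103, 103 and 90.8 CPM with 32-134D, or log2 differences of 1.71 and -1.29. In none of the 4 lists was a gene called between 32-134D at 1% O2 and vehicle at 20% O2, where 3.0% of all genes were higher and 0.516% lower. At an unadjusted edgeR p under 0.05 34 of the 87 genes passed there, and DESeq2 called 0. Some genes passed the FDR but not the fold threshold, among them NEDD9 (log2 0.42, edgeR FDR 0.00194) and AGRN (log2 -0.49, edgeR FDR 0.00454).

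**Figure D5:**
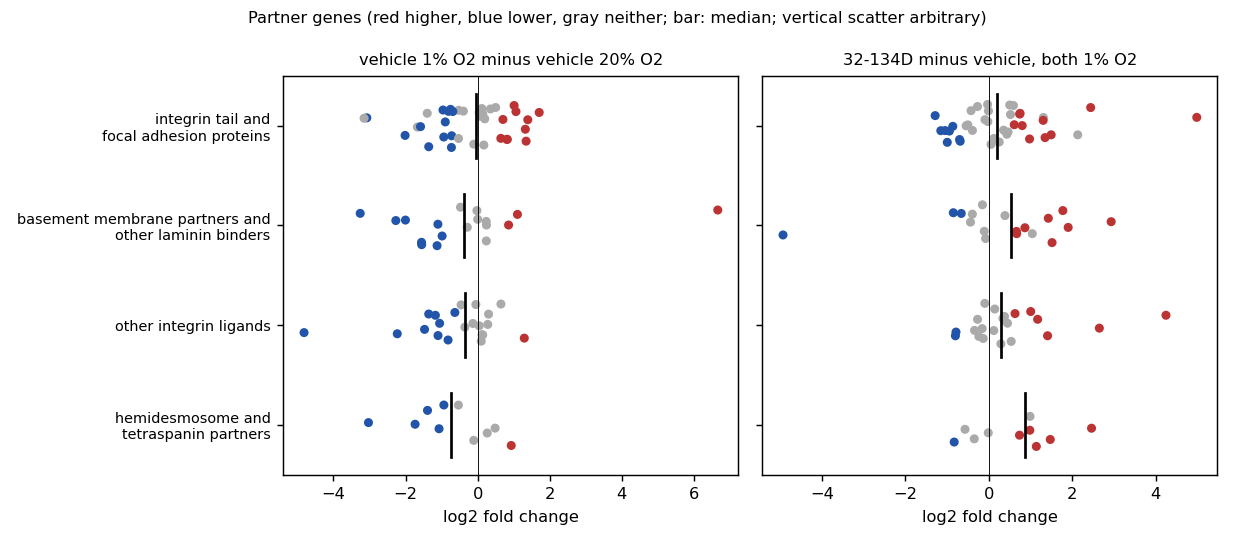
Log2 fold change of each tested partner gene (points, horizontal axis) in 4 lists (rows), in hypoxia and with 32-134D, with bars at list medians. The medians in hypoxia were -0.03, -0.38, -0.36 and -0.73 from top to bottom, and those with 32-134D were 0.19, 0.52, 0.29 and 0.86. The farthest point of the basement membrane row in hypoxia is FBLN2, and that of the focal adhesion row with 32-134D is TNS4, both fitted against a group at 0 counts.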

How the data were processed

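RNA-seq counts of 9 Hep3B libraries in 3 groups of 3 were used, with groups and replicates taken from the labels. The authors deposited whole-number counts per Ensembl gene (release 100, GRCh38), which they made with FastQC, STAR and featureCounts, without normalization. The strand setting and tool versions are not given in the sources used here. Counts came from 0 columns without a matching sample.

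Genes with counts summing to at least 10, 22672 in all, were tested in 1 quasi-likelihood fit of the 9 libraries (edgeR 4.0.16 in R 4.3.3, TMM scaling, group as the only term). CPM are counts scaled to the TMM-adjusted library size, and levels compared between genes were further divided by the union of GENCODE 29 exons. Genes passed at an adjusted p (Benjamini-Hochberg FDR) below 0.05 together with a change of over 1.5-fold, as in the study. SEs were derived from the log2 fold change and its F statistic. The common biological coefficient of variation was 10.5%. In simulated hypoxia counts of 22199 genes with 200 changed, the procedure was tested and recovered 184, with 13 false among 197 calls. Far fewer genes changed there than were called in the data, so this error rate need not hold for the data. Trends over the length and GC content of the longest transcript were removed with lowess (span 0.3, prior count 2). Alternatives were DESeq2 1.42.0, other scalings, filters, thresholds and sets of libraries, each library left out in turn and a block by replicate number.

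Total counts of 6013980 to 40549699 per library and 3 replicates a group limit the precision of genes with few counts. Libraries of the same group were not copies of each other, since their chi-square over genes was 1.64 to 40.5 per degree of freedom. This measure cannot tell whether they came from separate cultures. The members, the partner and marker lists and the rules for naming were chosen with earlier results of these data known. Every member with 10 or more counts is named except 1, which is not reported here, called members with a mean of at least 10 normalized counts in the highest group are given in every library, and of each partner list the 3 called genes with the largest change and a mean of at least 100 are named for each of the first 2 comparisons. Promoter windows are RefSeq sequences on GRCh38.p14.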

Additional observations from a re-analysis of the deposited data

How the results depend on the processing

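The counts of 10 members lower in hypoxia and 11 higher with 32-134D moved by over 1.5 times under 1 alternative in all, a fold change above 2, which left 6 higher with 32-134D. For members higher in hypoxia, 2 in the report, the count was 1 with total library size scaling, 0 with at least 10 counts in every library, 4 with only the 6 libraries compared and 1 with a fold change above 2, and it ran from 1 to 4 when each library was left out. For members lower with 32-134D, 0 in the report, it was 2 with no fold change threshold and ran from 0 to 1 with a library left out.

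Against vehicle at 20% O2, the count of members higher with 32-134D, 1 in the report, was 0 with total library size scaling, 3 with no filter on low counts, 0 with at least 10 counts in every library, 0 with only the 6 libraries compared, 0 with a replicate block and 0 with a fold change above 2, and ran from 0 to 2 with a library left out. The count of members lower, also 1, was 0 with DESeq2, 0 with median-of-ratios scaling, 0 with only the 6 libraries compared, 0 with the length and GC trends removed, 3 with no fold change threshold and 0 with a fold change above 2, and ran from 0 to 1 with a library left out. The cause was not tested, apart from those alternatives that change the number of genes or libraries by construction.

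No pairing by replicate number was seen, as deviations of libraries of the same number correlated at -0.03 to 0.01 over genes. Genes with few counts were included, so a correlation near 0 cannot show that the libraries were unpaired. With the replicate block the other member counts stayed within 1.5 times of those given, among them 10 lower in hypoxia and 11 higher with 32-134D. Over all single members, alternatives and comparisons, 1533 log2 fold changes changed neither direction nor call, 40 lost and 33 gained a call, 70 uncalled values changed sign, and 0 called values reversed. Members with few counts are limited by the smallest library of 6013980 counts, and differences in the genes under 10 counts were not detectable at this depth.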
